A study of Homo sapiens with 12 samples.

Results

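The transcripts described here are 9 of the 26334 rows of a count table. They are the Hippo pathway effectors YAP1 and WWTR1 (the gene of TAZ), the kinases LATS1 and LATS2, and TEAD1, a DNA-binding partner of the effectors. The others are the target genes AMOTL2, ANKRD1, CYR61 and CTGF, which the table lists under these older names of CCN1 and CCN2. All were chosen by symbol, all 9 had a row, and all 9 passed the filter on low counts (a mean of 10 or more per library). The cells were A673, an established Ewing sarcoma line, in the derivative labelled shA673-1c, and every group received 5 µM actinomycin D, for 0, 1, 2 or 4 h, with 3 biological replicates per time. Actinomycin D blocks transcription, so the loss of a transcript afterwards follows its decay. All groups were 1 line kept in blasticidin and zeocin, and the target of the shRNA named in the label was not given in the sources used here. Poly(A) RNA was sequenced in 12 strand-specific libraries.

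In the Hippo pathway, MST kinases with SAV1 activate LATS1 and LATS2 bound to MOB1, and the LATS kinases phosphorylate YAP and TAZ, which keeps them in the cytoplasm. Unphosphorylated YAP and TAZ enter the nucleus, where they bind TEAD factors and raise the transcription of genes such as CTGF, CYR61, ANKRD1 and AMOTL2. AMOTL2 and LATS2 also restrain YAP, so that the pathway includes negative feedback through its own targets.

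Total counts per library lay between 9147018 and 11194705. The Ewing sarcoma marker list had 7 of 8 genes at a mean of 10 or more counts, with a summed count of 3206 to 6332 per library, whereas CD99, a surface antigen used in the diagnosis of these tumors, was listed at 0 counts in all 12 libraries. Markers of other cells were near the floor: the summed counts per library were 2 to 13 for 5 endothelial genes (0 of 5 at a mean of 10 or more), 14 to 36 for 4 blood genes (1 of 4, CD79A) and 8 to 29 for 4 epithelial genes (1 of 4, CLDN4). MYC and JUN, short-lived transcripts used as a check of the time labels, had slopes of -1.12 and -0.89 log2 per hour. In bulk RNA, fewer cells that express a gene and less RNA per cell cannot be told apart.

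The first set of sequences is of the target genes' promoters, since GGAATG is the core of the site that TEAD factors bind and these genes are known as their targets. Both strands were searched. The windows run from 250 bases before to 50 bases after the start site, in RefSeq on GRCh38.p14, and GGAATG is in capitals. The promoter of CTGF at chr6:131951323-131951622, minus strand, held 3 copies, which began 169, 104 and 95 bases before the start site, and that of ANKRD1 at chr10:90921038-90921337, minus strand, held 2, which began 220 and 128 bases before it.
CTGF: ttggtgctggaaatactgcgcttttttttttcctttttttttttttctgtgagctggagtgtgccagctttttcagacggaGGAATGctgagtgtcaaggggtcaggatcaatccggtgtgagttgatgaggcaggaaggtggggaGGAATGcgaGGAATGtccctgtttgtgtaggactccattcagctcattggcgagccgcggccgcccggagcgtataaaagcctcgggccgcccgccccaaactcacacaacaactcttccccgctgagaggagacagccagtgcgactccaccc
ANKRD1: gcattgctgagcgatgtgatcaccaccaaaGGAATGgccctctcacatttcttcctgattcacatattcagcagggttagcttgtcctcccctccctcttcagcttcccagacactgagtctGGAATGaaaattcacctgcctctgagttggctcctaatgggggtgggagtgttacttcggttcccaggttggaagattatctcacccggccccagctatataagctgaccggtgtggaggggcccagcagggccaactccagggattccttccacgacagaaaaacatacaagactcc

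GGAATG on either strand was present in 14.0% of the 35116 promoters of the same length, 2 or more copies in 1.37% and 3 or more in 0.128%. Of the other members in that table, YAP1 had 1 copy beginning 162 bases before the start site, AMOTL2 had 1 in the second of its promoters, on the opposite strand, 69 bases before it, and LATS2 had 1 beginning 10 bases after it. WWTR1 and LATS1 had none in either of their promoters, and the promoters of CYR61 and TEAD1 were not searched. TGANTCA, the letters of an AP-1 site, was found in 7.71% of all promoters and in those of ANKRD1 and LATS1 (1 copy each). These are matches of letters and do not show binding.

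The second set is of the 3′ untranslated regions, because TATTTAT is the core of the AU-rich element, a known mark of short-lived mRNAs. It is in capitals in 27-base windows read from the canonical transcripts of GENCODE 44.
CYR61, bases 528 to 534 after the stop codon: ctgaatgtttTATTTATcaaaatgtag
CYR61, bases 622 to 628: gaaaagatttTATTTATggaattaacc
ANKRD1, bases 92 to 98: atctagtttcTATTTATcaacgtgttg
ANKRD1, bases 181 to 187: gtgaaactctTATTTATttttatgtat
ANKRD1, bases 205 to 211: tattcctgttTATTTATttactgccac

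CYR61 had 2 copies in 908 bases (2.20 per kb) and ANKRD1 had 3 in 770 bases (3.90 per kb). Among 11048 tested genes with such a region of at least 100 bases, 38.5% had the motif, and 3.02% and 1.00% had as many copies per kb as CYR61 and ANKRD1. AMOTL2, CTGF and YAP1 had no TATTTAT, WWTR1 had 3, TEAD1 had 2, and LATS1 and LATS2 had 1 each. The shorter ATTTA was in 76.9% of these regions and in all 9 members. AMOTL2 and CTGF had 3 copies each, CYR61 and ANKRD1 4 each, LATS2 6, YAP1 9, WWTR1 12, and LATS1 and TEAD1 17 each. In the time course below, CYR61, with 2 copies of TATTTAT, lost most, and YAP1, with no copy, did not pass the test. AMOTL2 and CTGF, also with no copy, lost more than ANKRD1, and WWTR1, with 3, did not pass the test. A link between these motifs and the loss was not tested.

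Levels are given as CPM, the counts per 1000000 counts of a library scaled with TMM factors, and per kb of the canonical transcript where genes are compared with each other. At 0 h the order per kb was CTGF (75.4 ± 30.5, SD, n = 3), CYR61 (56.9 ± 17.6), YAP1 (42.2 ± 1.31), AMOTL2 (34.5 ± 5.71), ANKRD1 (27.0 ± 12.3), WWTR1 (20.1 ± 1.48), LATS2 (16.0 ± 2.31), TEAD1 (15.4 ± 2.32) and LATS1 (9.46 ± 0.561). Neighbors in this order overlapped over the 3 replicates, except YAP1 above AMOTL2, WWTR1 above LATS2 and TEAD1 above LATS1. At 4 h YAP1 came first, with 41.9 ± 1.87 CPM per kb, and did not overlap with WWTR1, which came second with 19.7 ± 0.966. CYR61 (3.89 ± 1.82) and AMOTL2 (3.84 ± 0.74) had moved to the last places, so the order at 4 h placed both effectors above all 4 targets, although WWTR1 and CTGF (15.6 ± 8.09) still overlapped.

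The question of the time course was how fast each transcript was lost. Over 0 to 4 h, 7 of the 9 transcripts fell, among them all 4 targets, both LATS kinases and TEAD1, and the effectors YAP1 and WWTR1 did not pass the test. None rose. By the slope over time, 32.1% of all tested genes fell and 30.7% rose (edgeR's quasi-likelihood test, adjusted p below 0.05). Unless a replicate block is named, the edgeR tests of a change over time left out the replicate number. Differences in level between replicates thus stayed in their spread. By 4 h against 0 h the same 7 members were lower, against 31.6% of all genes lower and 28.7% higher. The median slope of the members was -0.23 log2 per hour, beside 0.01 over all tested genes. The slopes are relative to the TMM scaling, and there is no spike-in among the rows used.

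**Figure D1:**
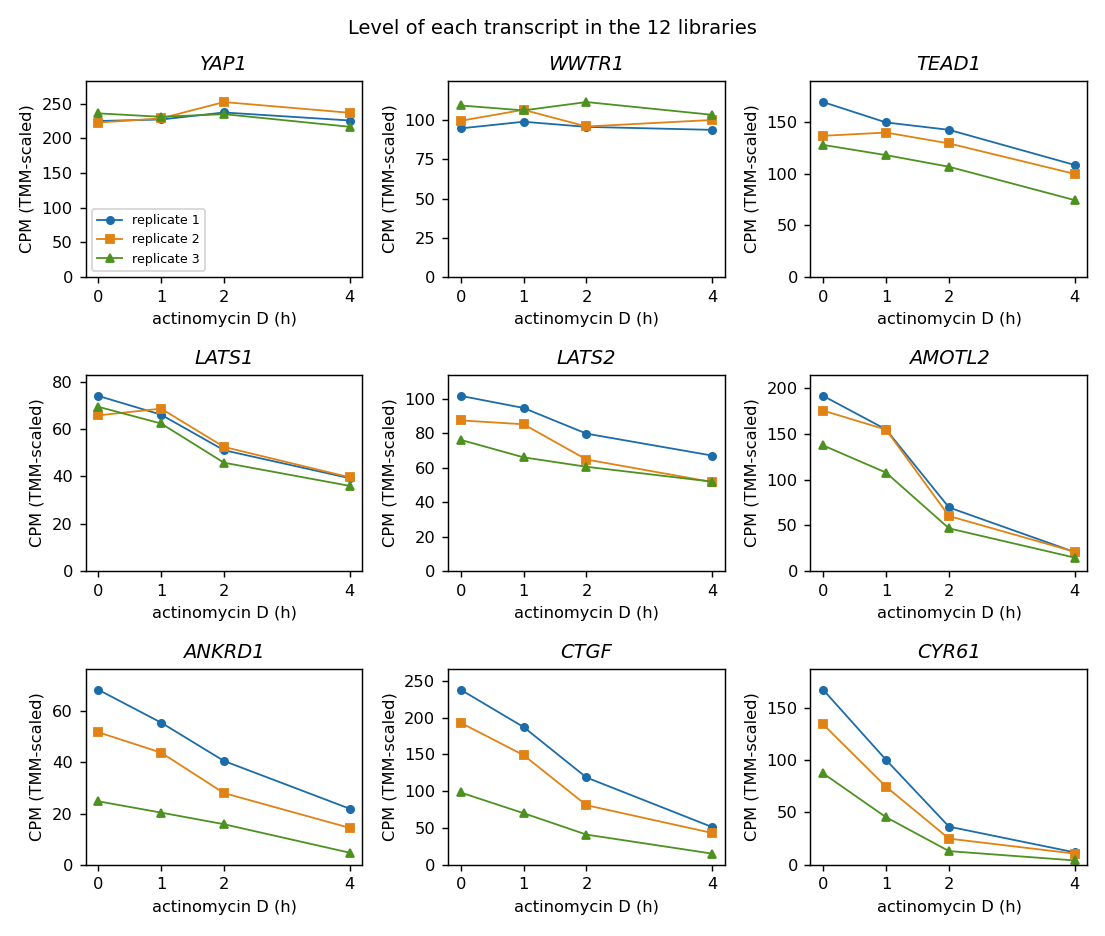
Each panel plots the TMM-scaled CPM of 1 transcript (vertical axis, from 0) against hours of actinomycin D, with 1 line per replicate number. YAP1 and WWTR1 have overlapping levels at 0 and 4 h, the other 7 transcripts are lower at 4 h in all 3 replicates, and the lines of ANKRD1, CTGF and CYR61 keep apart with replicate 3 lowest.

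Of the effectors, YAP1 (chr11:102110447-102233424 in GRCh38, plus strand), the transcriptional coactivator that LATS kinases restrain, had 225, 223 and 236 CPM at 0 h in replicates 1, 2 and 3, and 227, 229 and 231 CPM at 1 h. It had 237, 252 and 235 CPM at 2 h and 226, 237 and 217 CPM at 4 h. The highest library was at 2 h and the lowest at 4 h. All libraries at 2 h were above those at 1 h, and every other pair of times overlapped. At 4 h 99.5% ± 7.29 (SD, n = 3) of the 0 h level was left, and the slope was -0.00053 log2 per hour (SE 0.0138, edgeR adjusted p = 0.975).

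WWTR1 (chr3:149517235-149736714, minus strand) encodes TAZ, the paralog of YAP. It had 94.8, 99.6 and 109 CPM at 0 h, 99.0, 107 and 106 CPM at 1 h, 95.7, 96.0 and 112 CPM at 2 h, and 93.8, 100.2 and 103 CPM at 4 h. All 4 times overlapped, and replicate 1 was the lowest at each of them. At 4 h 98.0% ± 3.11 was left, and the slope was -0.01 log2 per hour (SE 0.0176, edgeR adjusted p = 0.599).

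The result for both effectors depended on the scaling. GAPDH and ACTB themselves had slopes of 0.15 and 0.12 log2 per hour under TMM, and with libraries scaled to their summed counts the median slope of all genes moved to -0.13 log2 per hour, 64.2% of all genes fell and 0.931% rose. In that scaling all 9 members fell, YAP1 with a slope of -0.14 log2 per hour (edgeR adjusted p = 1.53e-05) and WWTR1 with -0.15 (adjusted p = 0.000157). Relative to the median of all genes, YAP1 and WWTR1 thus stayed near the middle in either scaling. Library totals alone gave slopes of -0.04 for YAP1 (adjusted p = 0.0197) and -0.05 for WWTR1 (adjusted p = 0.0415). The 7 other members fell under each of these scalings, but their half-lives (-1 divided by the slope) depended on the scaling. Those of LATS1, LATS2 and TEAD1 were 4.36, 6.03 and 6.42 h with TMM. They were 3.72, 4.88 and 5.11 h with library totals, and 2.72, 3.29 and 3.39 h with GAPDH and ACTB as the scale. The half-life of CYR61 was 0.983 h with TMM and 0.871 h in the last scaling. Half-lives printed below are those of TMM. They take 1 rate over 0 to 4 h, and those of LATS1, LATS2 and TEAD1 reach beyond the last time sampled. With the 4 h libraries left out, 3 members fell (CYR61, AMOTL2 and LATS1), against 18.4% of all genes.

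**Figure D2:**
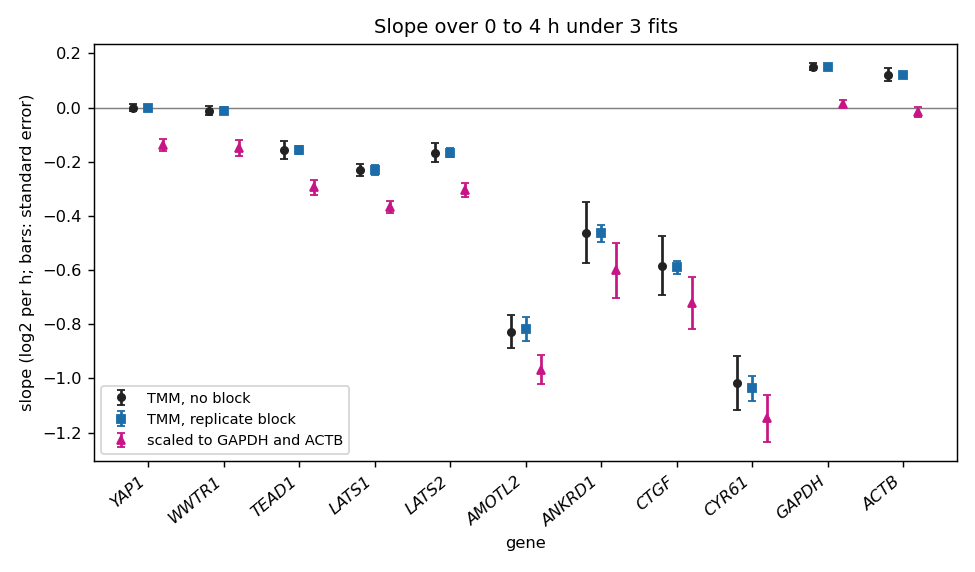
The slope of each member, and of GAPDH and ACTB, in log2 per hour (vertical axis) is plotted for 3 fits, with bars for the standard error. Scaling to GAPDH and ACTB lowers all members nearly alike, by more than the distance of YAP1 and WWTR1 from 0, and the replicate block leaves the slopes in place with shorter bars.

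The kinases fell slowly. LATS1 (chr6:149658153-149718105, minus strand) had 74.0, 65.7 and 69.4 CPM at 0 h, 66.0, 68.6 and 62.3 CPM at 1 h, 51.0, 52.4 and 45.7 CPM at 2 h, and 39.2, 39.5 and 35.9 CPM at 4 h. The 0 h and 1 h libraries overlapped, and every library at 2 h was below them and above every library at 4 h. The slope was -0.23 log2 per hour (SE 0.0213, edgeR adjusted p = 1.25e-07), a half-life of 4.36 h relative to the scaling, and 55.0% ± 4.54 of the transcript was left at 4 h.

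LATS2 (chr13:20973036-21061586, minus strand), which is a YAP target as well as a kinase of YAP, had 102, 87.6 and 76.3 CPM at 0 h, 94.8, 85.3 and 66.1 CPM at 1 h, 79.9, 64.8 and 60.6 CPM at 2 h, and 67.1, 51.7 and 51.9 CPM at 4 h. Consecutive times overlapped, and 0 h and 4 h did not. LATS2 fell with a slope of -0.17 log2 per hour (SE 0.0345, edgeR adjusted p = 0.000512), a half-life of 6.03 h, with 64.3% ± 4.70 left at 4 h. Without replicate 2 the fall from 0 to 4 h had an adjusted p of 0.0630 in edgeR, in a fit that left out the replicate number. With a replicate block and all replicates, that change was -0.64 log2 (SE 0.0577, edgeR adjusted p = 2.05e-11).

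TEAD1 (chr11:12674421-12944737, plus strand) encodes a TEAD factor, among others, through which YAP and TAZ reach DNA. It had 169, 137 and 128 CPM at 0 h and 150, 140 and 118 CPM at 1 h. At 2 h it had 142, 129 and 107 CPM, and at 4 h 108, 99.8 and 74.4 CPM. Replicate 1 was the highest and replicate 3 the lowest at each time, and 0 h and 4 h did not overlap. The slope was -0.16 log2 per hour (SE 0.0341, edgeR adjusted p = 0.000802), a half-life of 6.42 h, with 65.1% ± 7.46 left at 4 h.

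The targets were lost faster, and they differed among themselves. CYR61 (chr1:85580761-85584589, plus strand), a secreted matricellular protein of the CCN family, had 167, 134 and 87.3 CPM at 0 h, 100.2, 74.5 and 45.4 CPM at 1 h, 36.4, 25.0 and 13.1 CPM at 2 h, and 11.8, 10.6 and 4.14 CPM at 4 h. All libraries at 2 h were below those at 1 h, and all at 4 h were below those at 2 h, whereas 0 h and 1 h overlapped. Within replicates 55.8% ± 3.95 was left at 1 h, 18.5% ± 3.42 at 2 h and 6.58% ± 1.65 at 4 h. The slope of -1.02 log2 per hour (SE 0.0998, edgeR adjusted p = 2.28e-07) gave a half-life of 0.983 h, the shortest of the 9.

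AMOTL2 (chr3:134355347-134375479, minus strand), an angiomotin family protein that binds YAP, had 191, 175 and 137 CPM at 0 h, 155, 154 and 108 CPM at 1 h, 69.5, 60.1 and 46.6 CPM at 2 h, and 20.6, 21.0 and 14.6 CPM at 4 h. The 0 h and 1 h libraries overlapped and the later times did not. In percent of 0 h, 82.4% ± 5.09 was left at 1 h, 34.8% ± 1.27 at 2 h and 11.1% ± 0.748 at 4 h. The slope was -0.83 log2 per hour (SE 0.0614, edgeR adjusted p = 1.29e-08), a half-life of 1.21 h. This half-life takes 1 rate over 0 to 4 h, although AMOTL2 fell more slowly in the first hour in the fit with the replicate block.

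CTGF (chr6:131948176-131951372, minus strand), the other CCN family member and a widely used readout of YAP activity, had 238, 193 and 98.2 CPM at 0 h, 187, 149 and 70.1 CPM at 1 h, 119, 80.9 and 41.0 CPM at 2 h, and 51.1, 43.1 and 15.1 CPM at 4 h. Consecutive times overlapped because replicate 3 was low throughout, and 0 h and 4 h did not. Within replicates 75.7% ± 3.86 was left at 1 h, 44.5% ± 4.62 at 2 h and 19.7% ± 3.79 at 4 h. The slope was -0.58 log2 per hour (SE 0.108, edgeR adjusted p = 0.000179), a half-life of 1.71 h.

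ANKRD1 (chr10:90912096-90921087, minus strand), an ankyrin repeat protein known from striated muscle, had 68.5, 51.8 and 24.8 CPM at 0 h, 55.6, 43.8 and 20.4 CPM at 1 h, 40.6, 28.0 and 15.9 CPM at 2 h, and 21.9, 14.4 and 4.70 CPM at 4 h. The 0 h libraries spanned 2.76 fold, the widest spread of the 9, and 0 h and 4 h did not overlap. At 4 h 26.2% ± 6.66 was left, with a slope of -0.46 log2 per hour (SE 0.113, edgeR adjusted p = 0.00201) and a half-life of 2.17 h. Without replicate 2 the difference between 4 h and 0 h had an adjusted p of 0.0941 in edgeR, in a fit that left out the replicate number. With a replicate block and all replicates, that difference was -1.84 log2 (SE 0.0931, edgeR adjusted p = 2.48e-17).

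**Figure D3:**
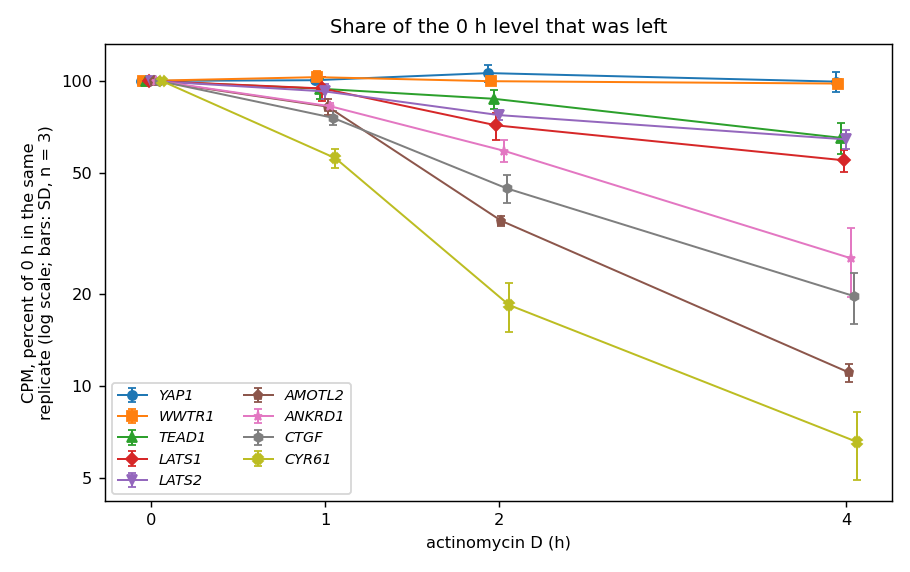
The CPM of each member in percent of the 0 h library of the same replicate number (log scale) is plotted against hours of actinomycin D, as mean and SD of 3 replicates, with points set slightly apart for legibility. CYR61 drops to 55.8% at 1 h, AMOTL2 is at 82.4% at 1 h and crosses below CTGF by 2 h (34.8% against 44.5%), and YAP1 and WWTR1 end at 99.5% and 98.0%.

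When each interval was tested alone, the calls depended on whether the replicate number was in the fit, and the numbers did pair the libraries. Between 0 and 1 h none of the 9 passed without the block (1 had an unadjusted p below 0.05 in edgeR, CYR61 at -0.82 log2, adjusted p = 0.257, and DESeq2 called 0), against 2.24% of all genes lower. With the replicate number as a block 4 were lower, namely all 4 targets, against 10.5% of all genes. CYR61 fell by 0.83 (SE 0.0598, adjusted p = 8.96e-12), CTGF fell by 0.39 (adjusted p = 2.39e-06), AMOTL2 fell by 0.28 (adjusted p = 2.15e-05) and ANKRD1 fell by 0.28 on the log2 scale (adjusted p = 0.00857).

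Between 1 and 2 h, 3 members were lower without the block, against 12.5% of all genes. AMOTL2 fell by 1.24 (edgeR adjusted p = 0.000242), CYR61 fell by 1.56 (adjusted p = 0.00934) and LATS1 fell by 0.40 on the log2 scale (adjusted p = 0.00191). Without replicate 2 the adjusted p of CYR61 in this interval was 0.185. With the block CTGF, ANKRD1 and LATS2 were also lower, 6 in all, against 20.7% of all genes.

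Between 2 and 4 h, 4 members were lower without the block, against 18.3% of all genes. AMOTL2 fell by 1.65 (edgeR adjusted p = 4.73e-05), CYR61 fell by 1.48 (adjusted p = 0.0245), TEAD1 fell by 0.42 (adjusted p = 0.0438) and LATS1 fell by 0.38 on the log2 scale (adjusted p = 0.0023). The calls of CYR61 and TEAD1 were lost without replicate 1 (adjusted p = 0.102 and 0.0804) and without replicate 2 (0.164 and 0.223). With the block 8 members were lower, all but WWTR1, against 25.3% of all genes, and the 8 included YAP1, by 0.09 on the log2 scale (adjusted p = 0.0434). Scaled to GAPDH and ACTB, all 9 were lower in this interval, against 40.4% of all genes.

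Whether the first hour had the same rate as later was tested by comparing it with the mean rate from 1 to 4 h. The 2 h libraries have no weight in this comparison, so a change of rate at 2 h was not tested. Without the block, CYR61 changed by -1.56 log2 between 1 and 2 h and by -1.48 over the 2 h that followed. TEAD1 changed by -0.11 and then -0.42 over the same intervals. Without the block no member differed (1 had an unadjusted p below 0.05 in edgeR and 1 in DESeq2, with 0 called by either), and of all 12032 genes 5 had a lower and 16 a higher signed rate in the first hour than later. With the block, 2 members fell more slowly in the first hour than later. Over all genes 7.47% had a higher signed rate in the first hour, which for a rising gene is a faster rise. AMOTL2 changed by -0.28 log2 in the first hour and by -0.96 log2 per hour afterwards, a difference of 0.68 (SE 0.0553, edgeR adjusted p = 3.23e-09). CTGF changed by -0.39 and then -0.63, a difference of 0.24 (SE 0.0659, adjusted p = 0.0158). CYR61 changed by -0.83 and then -1.01, a difference of 0.18 that did not pass (adjusted p = 0.152). ANKRD1 changed by -0.28 and then -0.52, a difference of 0.24 (edgeR adjusted p = 0.0813). LATS1 changed by -0.09 and then -0.26, a difference of 0.17 (adjusted p = 0.0933). Neither of these passed.

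Ratios of paired genes within a library do not depend on the scaling. The counts of CYR61 over those of CTGF, the 2 CCN genes, fell from 0.757 at 0 h to 0.558 at 1 h, 0.312 at 2 h and 0.252 at 4 h (geometric means). The slope of the log2 ratio was -0.41, -0.38 and -0.44 per hour in replicates 1, 2 and 3, with a mean of -0.41 (exact two-sided permutation test of times within replicate numbers, p = 0.00014, adjusted over 3 pairs p = 0.00043). LATS1 over LATS2 fell from 0.791 to 0.676, with slopes of -0.08, 0.0016 and -0.11 in the 3 replicates and a mean of -0.06 (exact permutation p = 0.0099, adjusted p = 0.015). Only 2 of the 3 replicates had this direction, and the adjusted p was 0.182 without replicate 1, 0.156 without replicate 3 and 0.141 when times were exchanged over all libraries. YAP1 over WWTR1 was 2.25 at 0 h and 2.28 at 4 h, with a mean slope of 0.010 ± 0.023 (SD, n = 3, exact permutation p = 0.592).

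**Figure D4:**
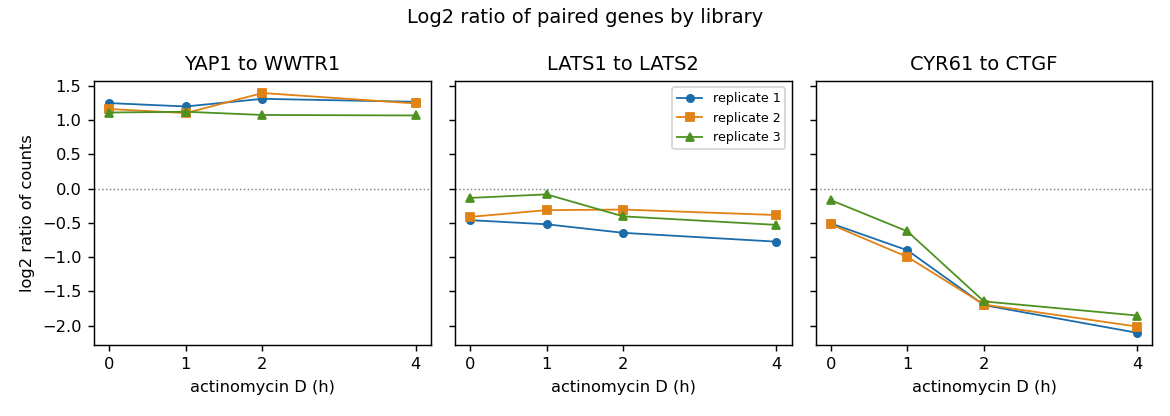
The log2 ratio of the counts of paired genes in each library (vertical axis) is plotted against hours of actinomycin D, with 1 line per replicate number. The ratio of CYR61 to CTGF falls in all 3 replicates, from a mean of -0.40 to -1.99, and that of YAP1 to WWTR1 begins at 1.17 and ends at 1.19.

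The levels of the targets also differed between replicate numbers, at every time. Replicate 3 was the lowest and replicate 1 the highest at each of the 4 times for CTGF, CYR61, ANKRD1 and TEAD1. In a test across replicate numbers, added after the values were seen, 7 of the 9 members differed in level, against 44.6% of all genes. Replicate 3 was below replicate 1 by -1.50 log2 for ANKRD1 (edgeR adjusted p = 1.66e-15), -1.43 for CTGF (1.39e-18), -1.11 for CYR61 (7.02e-14), -0.52 for AMOTL2 (1.85e-10), -0.43 for LATS2 and -0.42 for TEAD1. WWTR1 moved the other way, 0.17 higher in replicate 3 (adjusted p = 0.00435), and LATS1 (adjusted p = 0.159) and YAP1 (0.537) did not pass. In scalings that were also added after the values were seen, the directions of these 7 held with library totals and with GAPDH and ACTB as the scale, where ANKRD1 was at -1.47 and -1.34 and CTGF at -1.39 and -1.26, and in the latter scaling YAP1 passed as well, 0.18 higher in replicate 3. Over all genes 46.1% differed in level with library totals and 60.8% with GAPDH and ACTB. ACTB was 0.31 lower in replicate 3 than in replicate 1 and JUN was 0.66 lower, and their part in the result was not tested.

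Slopes did not differ detectably between replicate numbers. By the same added test, 0 of the 9 members (0 also at an unadjusted p below 0.05 in edgeR) and 0.0% of all genes differed in slope. Within replicates, the share of CTGF left at 4 h was 21.5%, 22.3% and 15.4%, and that of ANKRD1 was 32.0%, 27.8% and 18.9%, in each case lowest in replicate 3.

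The rest of the pathway was described through lists of genes. Of 25 upstream regulators and kinases, all tested, 12 fell, 5 rose and 8 did not pass. Of all tested genes, 32.1% fell and 30.7% rose in the same fit. The median slope of the list was -0.06 log2 per hour, beside 0.01 over all genes. Without LATS1 and LATS2, 10 of 23 fell and 5 rose. FRMD6, a FERM domain protein upstream of the kinases, fell most (-0.45 log2 per hour, edgeR adjusted p = 8.74e-06), from 103 to 30.6 CPM, followed by TAOK1, a kinase that activates MST kinases, at -0.31. WTIP, a LIM protein of the Ajuba family, rose by 0.17 (adjusted p = 0.00286) and DCHS1, a protocadherin that pairs with FAT4, by 0.10 (adjusted p = 0.0373). Scaled to GAPDH and ACTB, 22 of the 25 fell and none rose, against 64.2% and 0.931% of all genes. The calls of WTIP and DCHS1 as rising thus depended on the scaling.

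Of 10 TEAD factors and cofactors, 8 were tested, and VGLL1 and VGLL2 were below the count filter. With the members TEAD1, YAP1 and WWTR1 included, 3 fell, 1 rose and 4 did not pass, with a median slope of -0.03 log2 per hour. Over all genes 32.1% fell and 30.7% rose. TEAD4 fell with a slope of -0.18 (edgeR adjusted p = 0.00195), from 66.4 to 40.8 CPM, and VGLL4, a cofactor that competes with YAP for TEAD, with a slope of -0.10 (adjusted p = 0.00053). TEAD2 rose by 0.09 (edgeR adjusted p = 0.000218), from 118 to 149 CPM. With GAPDH and ACTB as the scale 7 of 8 fell and no gene of the list rose, against 64.2% and 0.931% of all genes.

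Of 22 genes of a YAP target signature, 11 fell, 3 rose and 8 did not pass, with a median slope of -0.09 log2 per hour. Without the 5 members on it, 6 of 17 fell and 3 rose, with a median of -0.04. In the same fit 32.1% of all genes fell and 30.7% rose, so the falls among these 17 were near the share of all genes. NUAK2, a kinase, had the steepest slope (-1.19 log2 per hour), on a mean of only 13.2 counts, and FJX1, a secreted protein related to Four-jointed, fell from 53.1 to 7.25 CPM (-0.72). DOCK5, a guanine nucleotide exchange factor, and NT5E, the ectoenzyme CD73, rose by 0.09 and 0.10 log2 per hour. With GAPDH and ACTB as the scale 16 of the 22 fell and none rose, against 64.2% and 0.931% of all genes. With the replicate block, 13 of 25, 3 of 8 and 14 of 22 genes of the 3 lists fell and 6, 1 and 6 rose, beside 34.8% of all genes that fell and 36.2% that rose in that fit.

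**Figure D5:**
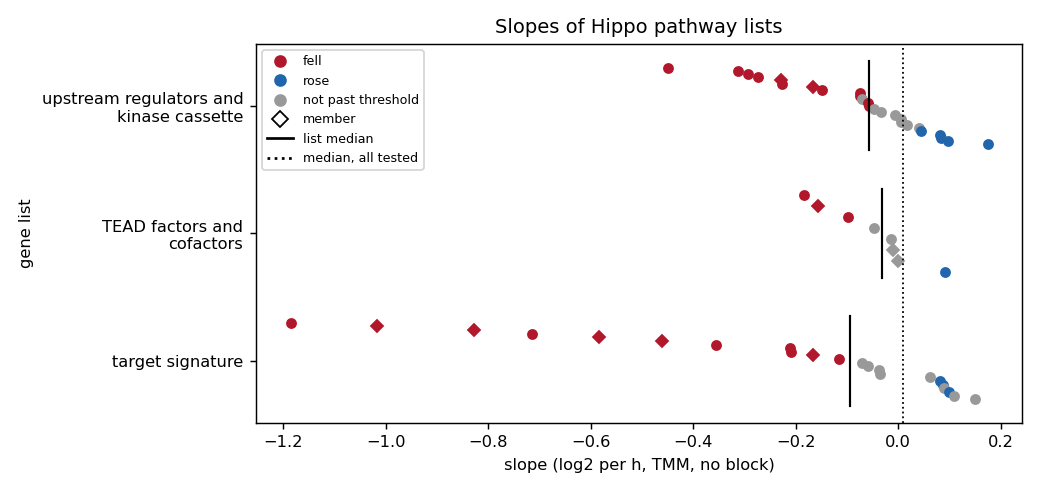
Points are the slopes of single genes in log2 per hour (horizontal axis, TMM scaling, no block) in 3 pathway lists, with diamonds for the 9 members, a solid line for each list's median and a dotted line for the median of all tested genes. The target signature reaches from -1.19 to above 0, with 4 members among its 6 steepest, and the other lists lie between -0.45 and 0.17.

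Other transcripts that followed the members most closely over the 12 libraries were found by Pearson's r of log2 CPM among 9978 genes. These values describe the libraries and include what libraries of a time share. For CYR61 they were PTCH1 (r = 0.992), ABL2 (0.991) and DUSP5 (0.991), and for CTGF they were PFKFB3 (0.988), BNC1 (0.988) and BCL2L1 (0.987), with ANKRD1 at place 6 (0.984) and TEAD1 at place 21 (0.973). A high r does not mean an equal rate. The slopes of PTCH1, ABL2 and DUSP5 were -0.28, -0.62 and -1.08 log2 per hour, beside -1.02 for CYR61. Those of PFKFB3, BNC1 and BCL2L1 were -0.21, -0.49 and -0.16, beside -0.58 for CTGF. LATS2 was closest to SNX33 (0.986), ENC1 (0.977) and PFKFB3 (0.972). For YAP1 the values were lower, with GPKOW (0.873), CPSF2 (0.777) and C12orf45 (0.765) in front, and its r with the 4 targets lay between -0.02 and 0.12.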

How the data were processed

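The table that the authors deposited holds raw read counts by gene symbol, as whole numbers, for the 12 libraries. The labels name FastQC, STAR and hg19 without a role, and describe poly(A) selection, a stranded kit and biological replicates in 6-well plates. The counter, its annotation and its strand setting were not given in the sources used here, so overlapping genes could share reads. The members and gene lists were chosen with earlier results of these data known.

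The quasi-likelihood test of edgeR 4.0.16 (R 4.3.3, glmQLFit and glmQLFTest, TMM factors) was run over the 12032 genes whose mean count was 10 or more, with Benjamini-Hochberg adjustment over all of them. CPM are counts per 1000000 of the TMM-scaled library size. Slopes used time in hours as a number, and other comparisons time as 4 groups. A half-life is -1 divided by a slope that passed. The common biological coefficient of variation was 0.0858. Pairs of replicates differed by more than sampling noise (chi-square per degree of freedom 3.21 to 8.67). Samples with 1 replicate number deviated together (correlation 0.30 to 0.61 in each of 18 pairs), so the labels' numbers were taken to pair the libraries. The mean over 36 pairs of different numbers was -0.21. That value is no separate evidence, because deviations were taken from the mean of the 3 replicates at each time. Ratios had 0.5 added to counts, with 13824 arrangements of times. The likeness was Pearson's r of log2 CPM. Named genes were all 9 members and, in each list, the genes with the steepest fall and rise among those that passed. Coordinates are those of GENCODE 44 on GRCh38, and promoters those of RefSeq on GRCh38.p14. The scripts were tested on simulated data. Alternatives were scaling to totals, to GAPDH plus ACTB or by size factors, the Wald test of DESeq2 1.42.0, other filters, a replicate block, leaving out replicates and fewer times.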

Additional observations from a re-analysis of the deposited data

How the results depend on the processing

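Over all alternatives, 418 of 468 values of single members kept their direction and their side of the threshold, 30 passed only under the alternative and 11 no longer passed. The other 9 changed sign, all of YAP1 or WWTR1 and none past the threshold in either fit. With 0, 1 and 2 h only, the slope was 0.053 for YAP1 and 0.010 for WWTR1. Scaled to GAPDH and ACTB, YAP1 was at -0.11 for 1 h against 0 h and -0.052 for 2 h against 1 h, and WWTR1 at -0.080 for 1 h against 0 h. Without single replicates, YAP1 ranged from -0.014 to 0.0089 for the slope, from -0.060 to 0.031 for 4 h against 0 h and from -0.0089 to 0.034 for 1 h against 0 h, and WWTR1 from -0.106 to 0.014 for 2 h against 1 h. The slope of the ratio of YAP1 to WWTR1 ranged from -0.0011 to 0.022 without single replicates. The replicate block raised the members lower at 1 h than 0 h to 4, at 2 h than 1 h to 6 and at 4 h than 2 h to 8, and the members slower in the first hour to 2. It changed no call of the slope or of 4 h against 0 h. Scaling to GAPDH and ACTB raised the members lower at 4 h than 2 h to 9, against 40.4% of all genes. With 0, 1 and 2 h only, 3 members fell (CYR61, AMOTL2 and LATS1), with fewer libraries in the fit, against 18.4% of all genes. Leaving out each replicate in turn gave 0 to 1 members lower at 1 h than 0 h, 2 to 4 at 2 h than 1 h, 2 to 6 at 4 h than 2 h, 5 to 7 at 4 h than 0 h, and 0 to 1 slower in the first hour. The single call at 1 h against 0 h and in the first hour came without replicate 3. The slope of the ratio of LATS1 to LATS2 ranged from -0.097 to -0.0396 without single replicates, and without the block it was -0.0642 with an adjusted p of 0.141 (permutation test, 100000 resamples). The causes were not tested. Depth limits the low end: at 4 h CYR61 and ANKRD1 were below 5 CPM in replicate 3.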
